A study of Mus musculus with 4 samples.

Results

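Def8, Selenom, Cep85 and Fkbp11 are 4 of the 32285 genes counted in single bone marrow cells of transplanted mice. They were chosen by their measured log2 ratios over control in progenitor-like cells of the Mll3/4 deleted library, so ratios of that contrast describe the choice and are not a finding. The study has 4 libraries, 1 for each group, all from CD45.2+ (donor-marked) bone marrow 10 weeks after transplantation. Of these, 3 were sorted as Kit+, a receptor carried by immature blood cells, and are labelled control, Mll3/4 deleted and Mll3/4SI. The other was sorted as B220lo, a gate for B-lineage cells, and is labelled control. What SI stands for is not said. The labels do not give the alleles, the driver of the deletion, the host or the number of mice in a library. With 1 library for each group no difference was tested, and every interval below covers counting error only.

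MLL3 and MLL4, encoded by Kmt2c and Kmt2d, are histone methyltransferases that act mainly at enhancers, and in blood they are known for roles in stem cell self-renewal and myeloid differentiation. The 4 genes do not belong to 1 known pathway. Def8 encodes a cytoplasmic protein with a RUBICON homology domain that binds PLEKHM1 and takes part in lysosome positioning. Selenom and Fkbp11 encode proteins of the endoplasmic reticulum, the first a small thioredoxin-like selenoprotein and the second a peptidyl-prolyl isomerase of the FK506-binding family that is abundant in secretory cells. Cep85 encodes a centrosome protein that restrains the kinase Nek2.

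The libraries held 85445426 to 166327773 UMIs (unique molecular identifiers, one for each captured transcript), and 11891 to 16329 cells were kept in each. Any 2 libraries shared 214 to 345 cell barcodes. The deleted library stood apart in its cells and in its sex-linked transcripts. Of its 14915 kept cells, 13743 had at least 3 UMIs of Cd79a, a part of the B-cell receptor, against 54 of 11891 in the control Kit+ library. Its Xist level was 0.314 CPM (UMIs of the gene per 1e6 UMIs) against 422 to 547 CPM in the other libraries, and 4 Y-linked genes summed to 149 CPM against at most 0.515 CPM. Sex and genotype cannot be told apart, and the part of sex in the levels below was not tested. Kmt2c stood at 58.5, 51.6, 62.6 and 147 CPM and Kmt2d at 24.1, 19.97, 20.7 and 41.7 CPM in control Kit+, deleted, SI and control B220lo. The sources used here do not name the deleted exons, so these levels do not check the labels.

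The genes lie on 4 chromosomes, with positions from GENCODE M21 on GRCm38. Def8 is on chromosome 8 (123423527 to 123463270, plus strand) and Selenom on chromosome 11 (3514684 to 3517351, plus strand). Cep85 is on chromosome 4 (134129858 to 134187112, minus strand). Fkbp11 is on chromosome 15 (98724366 to 98728198, minus strand), 103.471 kb from Kmt2d with 6 genes between. Their upstream sequences from RefSeq (GRCm38.p6) are shown because the genes were picked by the same contrast. The genes did not move alike in all gates and libraries, as given below. Each ends at the base before the RefSeq start site, except that of Cep85, which ends 28 bases before it. The Def8 start lies inside the longer GENCODE span, and a second RefSeq start of Def8 (207 bases upstream at chr8:123443052-123443258) is not shown. Capitals mark the CCAAT box, the GC box and the TATA motif on either strand.
Def8 (chr8:123442706-123442955, plus strand): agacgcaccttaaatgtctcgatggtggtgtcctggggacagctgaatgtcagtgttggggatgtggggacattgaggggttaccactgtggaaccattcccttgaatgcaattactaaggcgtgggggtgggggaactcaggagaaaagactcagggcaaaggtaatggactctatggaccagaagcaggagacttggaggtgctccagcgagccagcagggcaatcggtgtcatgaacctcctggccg
Selenom (chr11:3514434-3514683, plus strand): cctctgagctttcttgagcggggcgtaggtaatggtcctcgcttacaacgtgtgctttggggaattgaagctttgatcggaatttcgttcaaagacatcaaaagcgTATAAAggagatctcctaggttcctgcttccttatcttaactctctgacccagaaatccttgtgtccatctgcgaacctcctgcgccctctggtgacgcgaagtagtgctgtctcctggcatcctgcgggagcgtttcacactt
Cep85 (chr4:134187113-134187335, minus strand): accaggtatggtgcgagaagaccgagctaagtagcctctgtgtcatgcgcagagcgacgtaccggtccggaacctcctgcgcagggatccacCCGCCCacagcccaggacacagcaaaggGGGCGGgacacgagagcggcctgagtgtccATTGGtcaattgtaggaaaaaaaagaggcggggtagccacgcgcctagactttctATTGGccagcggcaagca
Fkbp11 (chr15:98728199-98728448, minus strand): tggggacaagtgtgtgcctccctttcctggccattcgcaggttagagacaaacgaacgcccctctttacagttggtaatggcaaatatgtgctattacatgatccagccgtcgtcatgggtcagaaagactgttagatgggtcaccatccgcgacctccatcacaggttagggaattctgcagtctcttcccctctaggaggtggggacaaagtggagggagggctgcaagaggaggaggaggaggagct
The 4 sequences held different motifs. The 250 bases upstream of each start were searched on both strands. Cep85 held the CCAAT box (CCAAT) at 2 places and the GC box (GGGCGG) at 2 places, and the other genes held neither. Selenom alone held TATAAA, 144 bases before its start. For scale, 33.8% of 32851 such mouse windows held a CCAAT box, 32.7% a GC box and 12.4% TATAAA. All 4 held an E-box (CANNTG), as did 66.2% of windows. None of the matches in capitals overlap. The letters of an unfolded protein response element (TGACGTG), the ETS core (CCGGAAG) and the EBF1 palindrome were in none of the 4, and in 1.65%, 6.91% and 0.779% of windows. The ER stress element was also in none, and in 0.113% of windows. No measurement of chromatin or of factor binding was used here.

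Levels were read in 5 sets of cells, each gated on raw UMIs of 1 gene. These were Cd79a (at least 3 UMIs, B lineage), Elane (at least 10, granulocyte precursors), Car1 (at least 10, erythroid precursors), Pf4 (at least 3, megakaryocyte lineage) and Hlf (at least 1, stem and progenitor cells). The lineage in brackets is that of the gate gene, and the gates were not pure. In the Kit+ libraries the granulocyte markers summed to 39152 to 46687 CPM in the Elane gate and the erythroid markers to 5575 to 5916 CPM in the Car1 gate. Granulocyte markers in the Car1 gate were 5118 CPM in control Kit+ and 608 in deleted. In control Kit+ the Pf4 gate held 8773 CPM of granulocyte and 3014 of megakaryocyte markers. Its Hlf gate held 17616 of granulocyte and 1043 of stem and progenitor markers. The control Kit+ Cd79a gate was mixed, with granulocyte markers at 16516 CPM and B-lineage markers at 5476, and 11 of its 54 cells were Elane cells. In control B220lo these were 983 and 11213 CPM. The deleted library had 13743, 658, 77, 14 and 218 cells in these gates, in that order, and the control Kit+ library had 54, 4884, 2759, 680 and 2844. The gates also overlapped, and 81 of the 218 deleted Hlf cells were Elane cells too. In the deleted library the other gates also held B-lineage RNA. The 10 B-lineage markers summed to 2227 CPM in its Elane gate, 2370 in Car1, 829 in Pf4 and 2351 in Hlf, against 16.1 to 54.5 CPM in the same gates of the control Kit+ library. None of the 10 was at 0 in the deleted Elane, Pf4 and Hlf gates, and Vpreb2 was at 0 in the Car1 gate. Of the deleted cells, 191 of 658 (29.0%) in the Elane gate, 22 of 77 in Car1 and 55 of 218 in Hlf carried at least 3 Cd79a UMIs themselves.

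**Figure D1:**
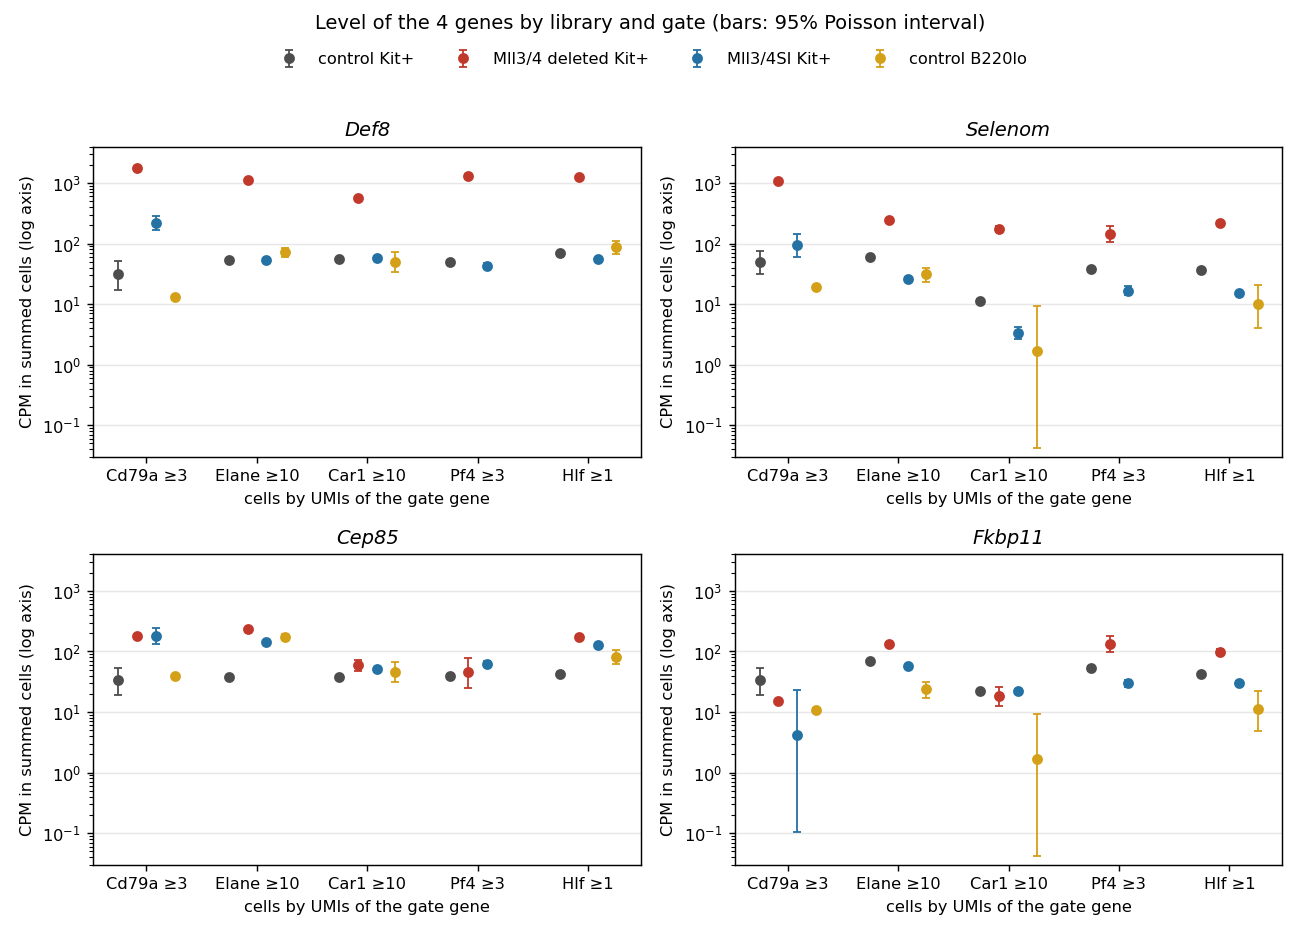
Level of each gene in CPM (log axis) in the summed cells of each gate (horizontal axis) for the 4 libraries, with 95% Poisson intervals; gates with under 10 cells are left out. Def8 of the deleted library lies above the other libraries in each gate, from 559 to 1777 CPM, while Cep85 is lowest in control Kit+ among the 4 libraries in the Cd79a, Elane, Car1 and Hlf gates.

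A gene was called when it differed at least 2-fold on the log2(CPM + 1) scale, among genes with a mean of at least 20 CPM over the 2 libraries. Against control Kit+, 3 of the 4 genes were called higher in the deleted Elane gate, where 1.46% of 6646 genes were (0.587% lower). Fkbp11, at 1.94-fold, was just outside the threshold, and Selenom, at 4.04-fold, was the nearest inside it. In the Hlf gate all 4 were called higher, where 1.63% of 6916 genes were (0.925% lower). Fkbp11 was not past 2-fold there with doubled gate thresholds (log2 0.98), and was at 1.90 for cells of exactly 1 gate. In the Car1 gate 2 of 4 were, Def8 and Selenom, where 1.79% of 6429 genes were (1.07% lower). Selenom, at 11.2 CPM in control Kit+ there, passed the CPM filter only through the deleted library. It could thus be called in 1 direction only. With only cells of 0 Cd79a UMIs, Selenom was not past 2-fold in Car1 (log2 0.13) or Elane (0.79). In the Cd79a gate 3 of 4 were called higher (8.98% of genes) and Fkbp11 was called lower (8.39%). Fkbp11, at 15.4 CPM in deleted, passed the CPM filter there only through control Kit+. That Fkbp11 call was lost for cells of exactly 1 gate (log2 -0.17). Nothing is read from these counts, since the genes were picked for this contrast. The SI library was not used for the choice, but its ratios share the control Kit+ library with those that were, so nothing is read from its counts either. Cep85 was called higher in the SI Elane gate (0.542% of 6636 genes) and in the SI Hlf gate (0.751% of 6923). Selenom was called lower in SI in the Elane (0.347%), Pf4 (1% of 6876, with 1.21% higher) and Hlf (0.506%) gates. In Pf4 (16.7 CPM in SI) and Hlf (15.0) it passed the CPM filter only through control Kit+. It could thus be called in 1 direction only in those gates. Each of these 3 Selenom calls was lost with a pseudocount of 10 CPM (log2 -0.97, -0.82 and -0.91). For cells of exactly 1 gate it was lost in Pf4 (-0.83) and Hlf (-0.69), and in Pf4 also as a mean over cells (-0.99) and when thinned (-0.39). No gene of the 4 was called in the SI Car1 gate (0.393% of 6368 genes higher and 0.236% lower). Selenom was past 2-fold there (log2 -1.48), but its mean was under 20 CPM and it was not among the genes counted. Def8 and Fkbp11 were called in none of the SI Elane, Car1, Pf4 and Hlf gates. In the SI Cd79a gate, with 28 cells, Def8 and Cep85 were called higher (5.25% of 6730 genes, with 7.96% lower). Against control B220lo, the deleted library had Def8, Selenom and Cep85 called higher in the Cd79a gate (7.51% of 7096 genes). It had Def8, Selenom and Fkbp11 called higher in Elane (2.11% of 6763, with 3.62% lower), and all 4 in Hlf (3.2% of 7155, with 6.67% lower). In Hlf, Selenom (9.96 CPM in control B220lo) and Fkbp11 (11.4) passed the CPM filter only through the deleted library. The genes were picked for high values in the deleted library, so nothing is read from these counts. Between the control libraries, B220lo over Kit+, Cep85 was called higher in Elane (3.29% of 6692) and Fkbp11 lower (1.18%). Selenom and Fkbp11 were called lower in Hlf (2.27% of 7148, with 6.66% higher), and these 2 and Def8 in the Cd79a gate (7.01% of 7037). In these Hlf and Cd79a calls the genes were under 20 CPM in B220lo and passed the CPM filter only through control Kit+. They could thus be called in 1 direction only, and nothing is read from these calls.

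Def8 was high in every gate of the deleted library. In the Elane gate it stood at 54.3 CPM in control Kit+, 1120 in deleted, 52.6 in SI and 72.3 in control B220lo. The deleted level was 20.6-fold that of control Kit+ (95% interval 19.97 to 21.3, log2 4.34). The other 3 libraries lay close together, and the SI level was 0.968-fold the control (0.926 to 1.01). In the Hlf gate the levels were 69.1, 1261, 55.3 and 86.8 CPM in the same order, and the deleted level was 18.2-fold the control (17.4 to 19.1). The SI level in that gate was lower than control, at 0.800-fold (0.758 to 0.843). In the Pf4 gate the deleted level was 1295 CPM over 14 cells, against 49.6 in control Kit+ and 42.7 in SI. The Car1 gate had the lowest deleted level of Def8, 559 CPM against 55.8, 57.1 and 49.96 in control Kit+, SI and control B220lo. Its ratio to control was 10.0 (9.31 to 10.8).

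Within the deleted library the B-lineage cells had the highest Def8, while in control Kit+ and control B220lo the Cd79a gate was below the Elane, Car1 and Hlf gates. In the Cd79a gate Def8 stood at 1777 CPM in the deleted library (207513 UMIs over 13743 cells) and at 13.1 in control B220lo (799 UMIs over 11644 cells). This is a ratio of 135 (126 to 145, log2 6.97). It was log2 6.06 without barcodes with a contig and 7.65 when thinned. Def8 passed the CPM filter of this comparison only through the deleted library. The control Kit+ gate stood at 31.1 CPM over 54 cells. The SI gate stood at 219 CPM over 28 cells, and in its 22 cells with an immunoglobulin contig, which gave 4 of the 53 UMIs, Def8 was 22.9 CPM.

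Within the deleted library Selenom was highest in the B-lineage cells. Its order of levels within the deleted library was Cd79a (1067 CPM), then Elane (246), Hlf (222), Car1 (175) and Pf4 (144). In control Kit+ the Elane gate was highest at 60.8 CPM, above Cd79a at 49.8, and the Car1 gate lowest at 11.2. In control B220lo, too, Elane (31.1) was above Cd79a (19.0). The deleted level was 4.04-fold the control in the Elane gate (3.87 to 4.22), 5.98-fold in Hlf (5.49 to 6.50) and 15.6-fold in Car1 (13.6 to 17.9). The SI library differed from control the other way in 4 gates. It stood at 26.2 CPM in the Elane gate, 15.0 in Hlf, 16.7 in Pf4 and 3.38 in Car1, which is 0.431-, 0.404-, 0.449- and 0.302-fold the control. In its Cd79a gate of 28 cells it stood at 95.2 CPM (60.4 to 143) against 49.8 (31.9 to 74.1), with overlapping intervals. The 22 of these cells with a contig gave 4 of the 23 UMIs and stood at 22.9 CPM, beside 52.4 in control cells with one, again with overlapping intervals. The control B220lo library was also below control Kit+ in the Elane gate, at 31.1 CPM (0.511-fold, 0.388 to 0.662). Between the B-lineage gates the deleted level was 56.0-fold that of control B220lo (52.9 to 59.4, log2 5.74), and log2 4.88 without barcodes with a contig. Selenom, at 19.0 CPM in control B220lo, also passed the CPM filter only through the deleted library. The 2 libraries also differed in B-cell stage.

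Cep85 was lowest in control Kit+ in the Elane and Hlf gates, and highest in the deleted library. In the Elane gate it stood at 37.3 CPM in control Kit+, 238 in deleted, 142 in SI and 174 in control B220lo. Control Kit+ was thus the lowest of the 4 and did not overlap the others. The deleted level was 6.38-fold that of control Kit+ (6.08 to 6.70) but 1.37-fold that of control B220lo (1.22 to 1.54). The SI level was 3.81-fold that of control Kit+ (3.66 to 3.97). Between the control libraries themselves, B220lo over Kit+, Cep85 was 4.67-fold (4.15 to 5.23) in this gate. In the Hlf gate the order was control Kit+ (42.9 CPM), control B220lo (82.5), SI (127) and deleted (177), so that SI and control B220lo changed places. In the Car1 gate the range was 37.2 to 59.3 CPM over the 4 libraries, and in the Pf4 gate 39.0 to 63.2 over the 3 Kit+ libraries. The Cd79a gate of the deleted library stood at 180 CPM, 4.56-fold that of control B220lo (4.37 to 4.75), and the SI gate at 182 CPM over 28 cells.

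Fkbp11 was low in B-lineage cells and higher in granulocyte precursors. In the Elane gate it stood at 69.9 CPM in control Kit+, 135 in deleted, 57.9 in SI and 23.6 in control B220lo. The deleted library was highest and control B220lo lowest, with no overlap of intervals. The ratio of deleted to control Kit+ was 1.94 (1.84 to 2.04) in the Elane gate and 2.32 (2.07 to 2.59) in the Hlf gate, where the levels were 98.6 and 42.6 CPM. In the Car1 gate the 3 Kit+ libraries lay between 18.2 and 22.0 CPM, and the deleted to control ratio of 0.833 had an interval of 0.563 to 1.19. In the Cd79a gate the deleted level was 15.4 CPM, against 33.2 in control Kit+ and 11.01 in control B220lo. The log2 ratio of deleted over control B220lo was 0.45 there. It was 1.91 without barcodes with a contig (15.2 against 3.30 CPM) and 0.02 for cells of exactly 1 gate. The SI Cd79a gate held 1 Fkbp11 UMI (4.14 CPM). This gate was mixed. Its 6 plasma cell markers summed to 8469 CPM, with only 2 of them at 100 CPM or more. Its B-lineage markers summed to 5429 CPM and its granulocyte markers to 5094. In the SI library Fkbp11 was below control in the Elane gate (0.829-fold, 0.795 to 0.864). It was also below control in the Pf4 gate (0.569-fold, 0.484 to 0.668) and in the Hlf gate (0.715-fold, 0.666 to 0.767). The Hlf difference was gone for cells of exactly 1 gate (log2 0.01).

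The question was then whether each difference went with B-lineage RNA in the same cells. The cells of each deleted gate were split by their own Cd79a UMIs. Def8 in the Elane gate was 895 CPM in the 313 cells without Cd79a, 909 with 1 UMI, 837 with 2 and 1470 in the 191 cells with 3 or more. Against control Kit+ cells without Cd79a the log2 ratio was 4.02, so most of the difference remained in cells with no Cd79a UMI. In the Hlf gate Def8 was 1066 CPM in the 109 cells without Cd79a, 1487 with 1 UMI, 645 with 2 (10 cells) and 1459 in the 55 with 3 or more, with no steady order. The log2 ratio without Cd79a was 3.93. The Car1 gate differed, with 273 CPM in 33 cells without Cd79a and 1152 CPM in 22 cells with 3 or more. The level without Cd79a still lay above control (log2 2.27). In control B220lo Def8 was also higher with Cd79a. It was 39.9 CPM in 50 Elane cells without Cd79a and 150 in 29 with 3 or more, above the 13.1 CPM of that library's own Cd79a gate. In its Hlf gate the levels were 14.5 CPM in 23 cells and 189 in 20, but thinned to 2000 UMIs only 3 of 57 cells held Def8 and 1 cell held 10 UMIs, so the Hlf value rests on few cells.

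Selenom differed more with Cd79a. In the Elane gate it was 106 CPM without Cd79a, 111 with 1 UMI, 92.0 with 2 and 462 with 3 or more, so the level was flat up to 2 UMIs and high above them. The log2 ratio over control in cells without Cd79a was 0.79 in the Elane gate and 1.15 in the Hlf gate, where the levels were 83.6 CPM without Cd79a and 470 with 3 or more. In cells without Cd79a, Selenom was thus no longer past 2-fold in the Elane gate, nor in Car1 (log2 0.13). In the Car1 gate 9 Selenom UMIs were left in the 33 cells without Cd79a. That is 12.4 CPM (5.67 to 23.6), beside 11.2 CPM in control, and cells with 3 or more Cd79a UMIs stood at 493 CPM.

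Cep85 and Fkbp11 did not go up with Cd79a in the Elane gate. Cep85 was 254 CPM without Cd79a and 224 with 3 or more, and its log2 ratio over control without Cd79a was 2.73. In the Car1 gate Cep85 was 42.7 CPM without Cd79a (29.0 to 60.7) and 99.3 with 3 or more. Fkbp11 was 159 CPM without Cd79a and 97.4 with 3 or more in the Elane gate, and 120 and 62.7 CPM in the Hlf gate. Cells without Cd79a thus gave it a larger ratio over control, log2 1.17 and 1.48. Cells with 3 or more Cd79a UMIs were deeper, with a median of 27286 UMIs against 18974 in the Elane gate. With every cell thinned to 2000 UMIs, Elane cells without and with a Cd79a UMI had 847 and 1342 CPM of Def8, 104 and 397 of Selenom, 206 and 189 of Cep85, and 157 and 126 of Fkbp11.

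**Figure D2:**
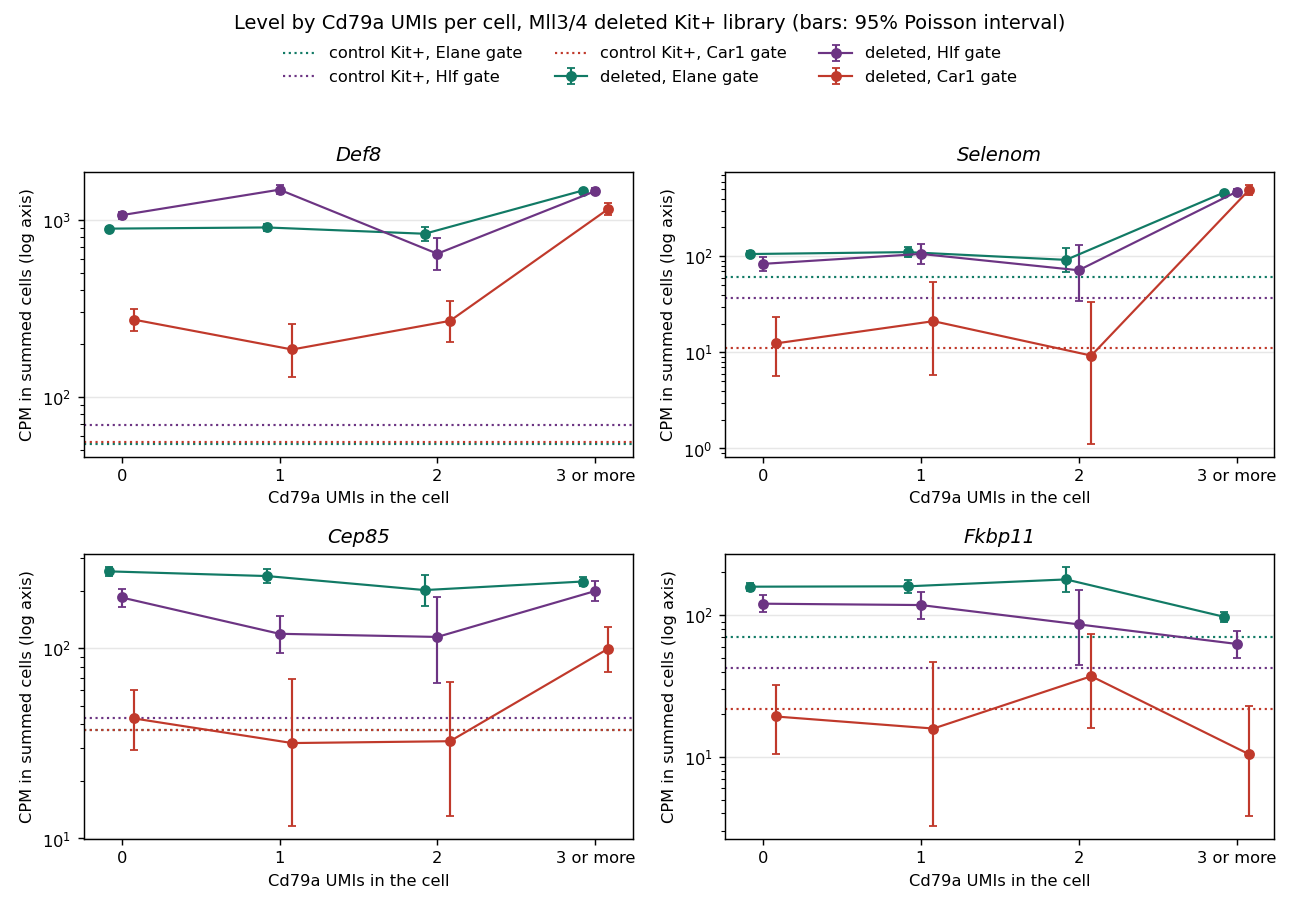
Level of each gene in CPM (log axis) against the number of Cd79a UMIs in the cell, in the deleted Elane, Hlf and Car1 gates, with 95% Poisson intervals; dotted lines give the control Kit+ level of each gate. Selenom in the Elane gate goes from 106 CPM at 0 Cd79a UMIs to 462 at 3 or more, while Fkbp11 goes from 159 to 97.4.

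An amount of carried RNA was then computed. The share of B-lineage RNA in a gate was taken as its Cd79a level over that of the deleted Cd79a gate. It came to 13.9% in Elane, 15.0% in Hlf and 16.1% in Car1. That share times the member's level in the deleted Cd79a gate was set beside the member's excess over control Kit+. For Def8 the product was 247 CPM beside an excess of 1066 CPM in Elane (23.1%), 22.4% in Hlf and 57.0% in Car1. For Selenom it was 80.0% in Elane, 86.9% in Hlf and 105% in Car1. For Cep85 it was 12.5% in Elane and 20.3% in Hlf, and for Fkbp11 3.25% and 4.13%. These percentages set 2 amounts side by side. They are larger than the part of the excess that carried RNA would give, since carried RNA also takes the place of other RNA. For Fkbp11 the deleted Cd79a gate (15.4 CPM) lay below the control Elane (69.9) and Hlf (42.6) gates, so carried RNA would lower its level. The excess of Cep85 in Car1 was 22.1 CPM and the product 29.1 CPM, and Fkbp11 had no excess there. The product was then taken off the level, and the rest divided by 1 minus the share, which scales it to the RNA that is not counted as carried. On that scale Def8 was 18.7-fold the control in Elane, 16.9-fold in Hlf and 5.81-fold in Car1. Cep85 was 6.63-, 4.099- and 0.967-fold, and Fkbp11 2.22-, 2.66- and 0.858-fold. Selenom was 1.87- and 1.94-fold in Elane and Hlf and 0.297-fold in Car1. Over the tracers it ranged from -0.96 to 2.21 in Hlf and from -1.41 to 3.07 in Car1. Over 7 B-lineage tracers the Def8 value in Elane ranged from 16.3 to 18.9, and that of Selenom from -0.79 to 2.08. The lowest values came with Cd79b, which stood at 45.4 CPM in the control Elane gate and so is not only a B-lineage transcript here.

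**Figure D3:**
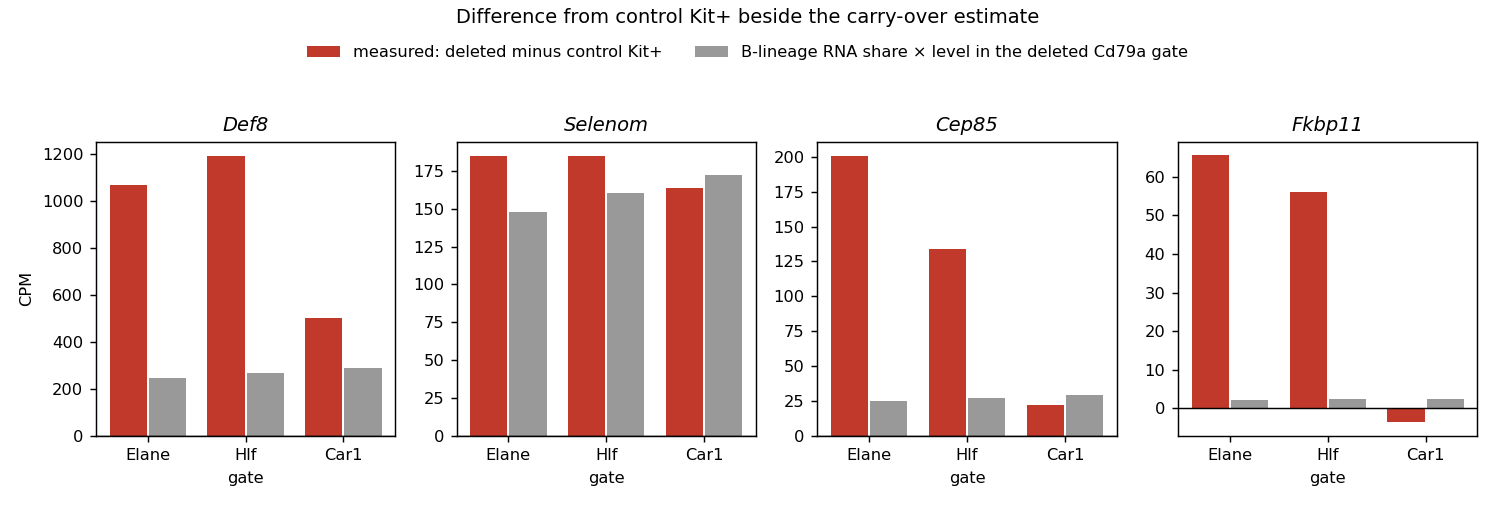
Excess of the deleted library over control Kit+ (red bars) and B-lineage RNA share times the deleted Cd79a gate level (grey bars), both in CPM, by gate, with a linear axis of its own for each gene. The bars are of similar height for Selenom. For Def8 the red bar is far taller in the Elane gate, 1066 against 247 CPM, and less so in Car1, 503 against 287 CPM.

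The spread over cells without Cd79a was read cell by cell. In the deleted Elane gate 93.6% of 313 such cells held a Def8 UMI, with a median of 542 CPM and a middle range (25th to 75th percentile) of 237 to 1011 CPM. In control Kit+ 53.6% did, with a median of 40.6 CPM and a 90th percentile of 141. The deleted 25th percentile thus lay above the control 90th percentile. In Hlf the deleted median was 696 CPM, and the 25th percentile of 330 also lay above the control 90th percentile of 210. In Car1 the deleted 25th percentile of 127 lay below the control 90th percentile of 150. The deleted 10th percentiles in Elane (81.1) and Hlf (161) lay below the control 90th percentiles of those gates. For Cep85 the Elane medians were 162 CPM in deleted, 96.2 in SI and 0 in control Kit+. For Fkbp11 they were 137, 22.7 and 51.3 CPM, and for Selenom 80.5, 0 and 38.3 CPM. The middle ranges of these 3 genes overlapped between libraries, and for Def8 the ranges from the 10th to the 90th percentile did. Thinned to 2000 UMIs with all cells of a gate, 67.1% of deleted Elane cells held a Def8 UMI (63.4% to 70.7%, exact binomial), against 9.88% in control Kit+ (9.05% to 10.8%) and 9.79% in SI. These shares were 96.4%, 53.6% and 54.9% before thinning. Of these gates 1 deleted, 25 control and 12 SI cells were too shallow and left out. No gate of the deleted library lacked Def8, the lowest level being 185 CPM in 11 Car1 cells with 1 Cd79a UMI, so no background share was read within that library. The part of free Def8 RNA was not tested.

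**Figure D4:**
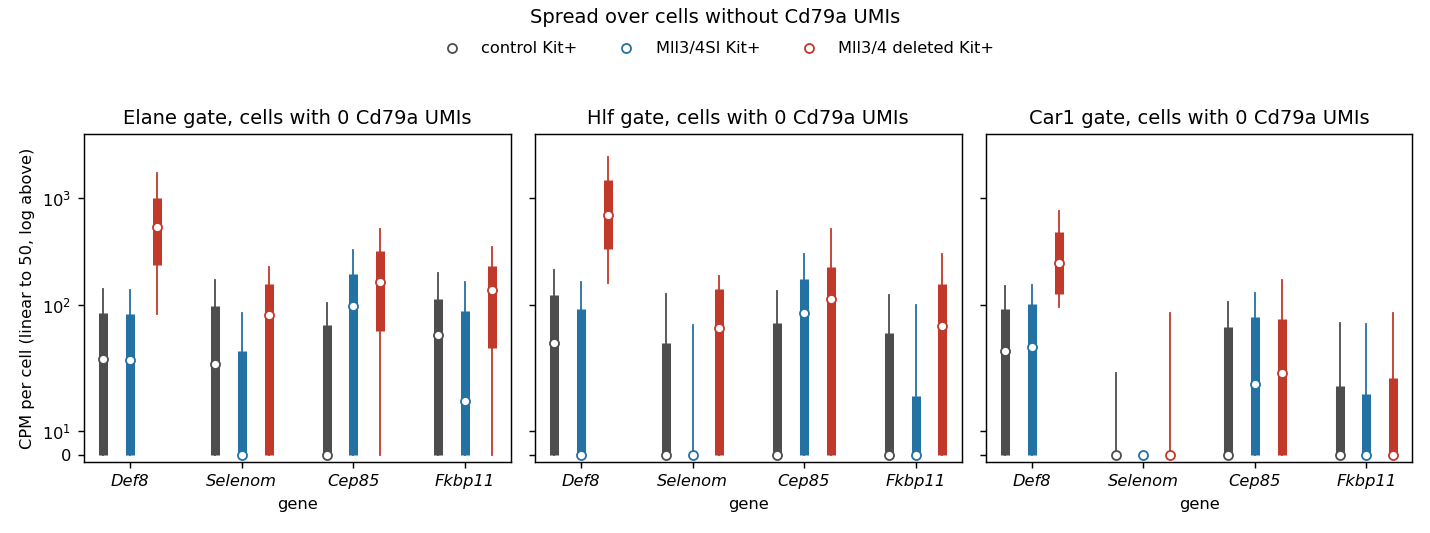
CPM per cell (linear to 50, logarithmic above) in cells with 0 Cd79a UMIs of the Elane, Hlf and Car1 gates, for 3 libraries. Circles are medians, thick bars run from the 25th to the 75th percentile and thin lines from the 10th to the 90th. The Def8 medians of the deleted library, 542, 696 and 247 CPM, lie above those of the other libraries in the 3 gates, while the thin lines overlap.

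Def8 differed little with granulocyte stage. Earlier Elane cells (Cd34 present, Cebpe absent) and later ones (Cebpe present) had 1082 and 1139 CPM of Def8 in the deleted library. Among those without Cd79a the order was the other way, 936 and 852 CPM. In control Kit+ they had 50.8 and 57.6 CPM. Cep85 was higher in earlier cells of the deleted (296 against 184 CPM) and SI (160 against 123) libraries, and was 39.9 and 35.4 in control Kit+. Fkbp11 was higher in later cells in the 4 libraries, at 159 against 109 CPM in deleted and 80.8 against 56.0 in control Kit+.

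B-lineage cells of the deleted and B220lo libraries differed in stage. Of the 13743 deleted cells, 13254 had at least 3 UMIs of Igll1, a pre-B receptor gene, against 1709 of 11644 in control B220lo. Within these early cells Def8 was 1785 CPM in deleted and 29.7 in control B220lo, and Selenom 1069 and 33.7. Cep85 was 181 and 45.6 CPM, and Fkbp11 15.3 and 5.76. Stage was cut on this 1 gene only, and the early cells differed in depth, with medians of 6930.5 and 9459 UMIs. In control B220lo, late cells (no Igll1, at least 1 Ms4a1 UMI) had less Def8 and Selenom than early ones, 4.61 and 9.35 CPM. Cells of the deleted Cd79a gate without a contig had 1852 CPM of Def8 and cells with one 1555. The deleted gate held 12 heavy-chain clonotypes of at least 50 cells, 1897 cells in all. Def8 ranged from 1081 to 1691 CPM over them, Selenom from 947 to 1417 and Cep85 from 128 to 257. The lowest clonotype of each of these 3 genes lay above the control B220lo level. Fkbp11 had a median of 13.1 CPM and a highest value of 31.3 over the clonotypes, and its lowest lay below the control B220lo level.

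Cycling cells, taken as those with at least 3 UMIs of Top2a, differed in Cep85 and Selenom. They were also deeper than cells without Top2a, with medians of 12147 against 4874 UMIs in the deleted Cd79a gate and 9976 against 2839.5 in control B220lo, and the part of depth was not tested. In the deleted Cd79a gate Cep85 was 246 CPM in cycling cells and 113 in cells without Top2a, and in control B220lo 58.4 and 25.2. Selenom went the other way in these 2 gates, 801 against 1385 CPM in deleted and 9.90 against 25.4 in control B220lo. Its direction was mixed elsewhere in the deleted library. Cycling cells had 264 against 131 CPM in Hlf, 257 against 239 in Elane and 165 against 220 in Car1. Def8 differed less, 1872 and 1672 CPM in the deleted Cd79a gate. In the Elane gate Cep85 was 257 and 214 CPM in deleted, 163 and 103 in SI, and 40.5 and 33.4 in control Kit+. The gap between libraries was thus present in both sets of cells.

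Def8 varied more from cell to cell than Selenom. In thinned B-lineage cells of the deleted library its Fano factor (variance over mean) was 5.66 and its highest count 72 UMIs of 2000. Selenom had a factor of 1.86 and a highest count of 14 at a mean of 2.49 UMIs, beside 3.35 for Def8. Both genes were seen in 81.9% of these cells. The Def8 factor was 3.61 in Elane and 3.21 in Hlf cells of the deleted library, at means of 1.98 and 2.31 UMIs. Control Kit+ means (0.104 and 0.160 UMIs) were too low for a comparison.

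Other genes of each member's family or process were counted in the same gates. Of all 6646 genes tested in the deleted Elane gate, 97 were past 2-fold higher and 39 lower. Of 16 tested genes of RUBICON homology and lysosome positioning, 0 were past 2-fold in the deleted Elane gate, and their median log2 ratio was 0.04, as for all genes. Lamp1 was 238 CPM against 240 in control, and Lamp2 138 against 109. Of 16 tested selenoproteins other than Selenom, 1 was past 2-fold, Txnrd3, a thioredoxin reductase. It stood at 52.7 against 12.4 CPM in Elane, 60.4 against 20.1 in Car1 and 56.4 against 16.7 in Hlf. In Elane and Hlf it passed the CPM filter only through the deleted library. Gpx1, the most abundant of the list, was 2855 against 3079 CPM in Elane. Of 7 tested FK506-binding proteins other than Fkbp11, 0 were past 2-fold (median 0.02). Of 27 tested genes of folding and secretion in the endoplasmic reticulum, 1 was, Mzb1, a B-cell chaperone at 223 against 0.134 CPM, and the median was 0.24. Mzb1 was among the tested genes only through the deleted library, and so could be called in 1 direction only. Calr was 1073 against 895 CPM there. Of 17 tested centrosome genes, 0 were past 2-fold and the median was 0.14. The nearest was Cep250, a centrosome linker protein picked after its value was seen, at 68.8 against 40.1 CPM (log2 0.76). In the SI Elane gate 0 genes of the 5 lists were past 2-fold.

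Most of the neighbouring genes that passed the CPM filter stayed within 2-fold of control. In the deleted Elane gate 1 around Selenom was past 2-fold higher and 1 around Cep85 lower. Of all 6646 genes tested there, 1.46% were called higher and 0.587% lower. Most neighbours did not pass the filter and were not judged. Of the 5 genes on each side of a member, those that passed the CPM filter in the Elane gate were 3 for Def8, 2 for Selenom, 3 for Cep85 and 2 for Fkbp11. Around Def8, Fanca, Tcf25 and Afg3l1 had log2 ratios of -0.06 to 0.12 in the deleted library. Around Fkbp11, Ddx23 and Arf3 had -0.07 and 0.03. Around Cep85, Sh3bgrl3 and Zfp593 had 0.21 and 0.19, and Cd52 was lower, at 56.3 against 124 CPM (log2 -1.12). Selenom's next gene on the chromosome, Smtn (chromosome 11, 3517523 to 3540612, minus strand), which encodes the cytoskeletal protein smoothelin, was higher, at 47.1 against 9.38 CPM (log2 2.21). It passed the CPM filter only through the deleted library. The 2 genes point towards each other. Smtn split by Cd79a like Selenom. In the deleted Elane gate it was 11.1 CPM without Cd79a and 100 with 3 or more, and in the Car1 gate 5.52 and 95.8. Def8 overlaps a predicted gene on the same strand, Gm20388, so reads in the shared stretches may have been dropped or given to either. Cep85 overlaps a small nucleolar RNA gene, Gm27619, which was not among the counted genes next to it.

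The genes whose pattern was most like each member were found over 16 sums of library and gate with at least 50 cells. The measure was Pearson's r of log2(CPM + 1) among 6747 genes, and the sums share libraries. For Def8 they were Ly6c1, Rnase10, Brinp3, Ackr3 and Ntn1 (r 0.90 to 0.91). These 5 were at most 1.58 CPM in the control Kit+ Elane, Car1 and Hlf gates, where Def8 was at least 54.3 CPM. Ly6c1 was 551 CPM in the deleted Cd79a gate and 88.5 in Elane. For Selenom they were Rnase4, Rnase10, Rnase12, Smtn and Npas3 (r 0.91 to 0.94), with Rnase12 at 937 CPM in the deleted Cd79a gate and 139 in Elane. Candidates needed a mean of at least 20 CPM over the sums. Among the Cd79a, Elane, Car1 and Hlf sums, the genes like Def8 or Selenom reached this level only in the deleted library. Rnase12 was an exception, at 20.7 CPM in the control Kit+ Cd79a gate. Def8 and Selenom were picked for high values in the deleted library, so nothing is read from their likeness. For Cep85 they were Srp54a, Dynlt1b, Pcca, Rap1gds1 and Kcnq1ot1 (r 0.77 to 0.84), and for Fkbp11 Mfsd14a, Shmt1, Tmem160, Hdlbp and Etfb (r 0.86 to 0.91). Among the members, r was 0.82 for Def8 with Selenom, 0.67 for Def8 with Cep85 and 0.47 for Selenom with Cep85. It was 0.29 to 0.32 for Fkbp11 with each of the others. These values describe the libraries and carry no test.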

How the data were processed

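Each library was made with 10x 5′ chemistry, per the labels' protocols. The authors deposited UMI counts per gene and cell barcode, and contig tables of immunoglobulin receptors. The submitters' processing notes name Cell Ranger 7.1.0 and mm10. A cell was kept if it had 1000 or more UMIs from 500 or more genes, with no more than 10% of UMIs mitochondrial. UMIs were summed over the cells of each gate and library and given as CPM, with exact 95% Poisson intervals, and ratios with exact conditional binomial intervals. Log2 ratios used a pseudocount of 1 CPM. Ratios needed 20 cells in both gates. Doublets were scored with Scrublet (scanpy 1.11.5, expected rate 8%) and kept in the main values. Thinning drew 2000 UMIs per cell. The calling step was tested on Poisson counts simulated from the summed control Kit+ Elane profile. These counts held no variation between cells or libraries, so they check the calculation only. Python 3.11.15, numpy 2.4.6, pandas 2.3.3 and scipy 1.17.1 were used. GENCODE M21 held 32158 of the 32285 features.

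The members and all lists were chosen with earlier results of these data known. Named genes were the members, their 5 neighbours on each side, the 5 genes most like each member, and from each list the genes past 2-fold and up to 3 of the most abundant others. Alternatives covered gate thresholds, filters, pseudocounts, scaling, tracers and left-out cells.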

Additional observations from a re-analysis of the deposited data

Results flagged for a closer look

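In 6 cases the deleted and SI libraries lay on opposite sides of the same control Kit+ library with both 95% counting intervals clear of it (Elane, Car1 and Hlf gates). With 1 library for each group, none of these differences was tested, and both ratios of a pair share the control. The genes were picked by their ratios in the deleted library, so that side was set by the choice. The share of all genes with such a pattern was not counted, and nothing is read from the number of cases. For Selenom the log2 ratio was 1.998 in deleted and -1.182 in SI Elane cells, 3.848 and -1.479 in Car1 cells, and 2.547 and -1.253 in Hlf cells. In deleted Car1 cells with 0 Cd79a UMIs it was 0.13, at 12.4 CPM (5.67 to 23.6) beside 11.2 in control, no longer clear of control. Deleted Elane cells with 0 Cd79a UMIs had 106 CPM beside 60.8 in control. With a pseudocount of 10 CPM the SI Car1 value was -0.66. For Fkbp11 the log2 ratio was 0.9457 and -0.2666 in Elane cells, and 1.193 and -0.4715 in Hlf cells. For cells of exactly 1 gate the SI Hlf ratio of Fkbp11 was 0.01, no longer below control. For Def8 the log2 ratio was 4.169 and -0.3177 in Hlf cells. Cep85 was above control in both libraries in each of these gates. In the deleted Car1 gate its log2 ratio was 0.66, and 0.06 without cells of 3 or more Cd79a UMIs.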

How the results depend on the processing

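No paired analysis was possible because each group has 1 library. Of 658 alternative values, 458 stayed within the counting error of the main value or, for counts of genes, within 1.5 times it, 200 moved further, and 0 called values changed sign. The values below are log2 ratios of deleted over control in Elane cells. Def8 (4.34) was 4.14 with a pseudocount of 10 CPM, 4.02 without cells of 3 or more Cd79a UMIs, 4.02 with 0 Cd79a UMIs only, 4.06 for cells of exactly 1 gate, 4.28 without contigs, 4.11 without Scrublet scores above 0.25, 4.31 without mitochondrial, ribosomal and receptor genes, 4.31 centred on the median gene, 4.21 as a mean over cells and 4.22 thinned. Under the same settings, where it moved, Selenom (1.998) was 1.85, 0.80, 0.79, 0.66, 1.83 and 1.28, then 1.67 as a mean over cells, 1.55 thinned and 2.11 with lower gate thresholds. Cep85 (2.64) was 2.39 with the pseudocount of 10, 2.80 in exactly 1 gate, 2.58 as a mean over cells and 2.37 thinned. Fkbp11 (0.95) was 0.87 with that pseudocount, 1.18 without cells of 3 or more Cd79a UMIs and 1.17 with 0 only, which passes 2-fold. Alternatives chosen after seeing the data gave Def8 4.28 in later cells, Selenom 2.13 in earlier and 1.85 in later cells, and Cep85 2.86 and 2.34. With 0 Cd79a UMIs, no contig and a Scrublet score of at most 0.25 the values were 4.05 for Def8, 0.67 for Selenom (below 2-fold), 2.76 for Cep85 and 1.05 for Fkbp11. Leaving out barcodes found in more than 1 library gave 4.36, 1.98, 2.65 and 0.92. The B-lineage share (13.9% by Cd79a) was 26.4% by Cd79b, 12.7% by Vpreb1, 14.9% by Igll1, 18.6% by Ebf1 and 15.5% by Mzb1. With mean CPM of at least 10, at least 50 and no filter, 174, 39 and 572 genes were called higher in deleted (main 97) and 87, 12 and 328 lower (39), with 23 lower at the pseudocount of 10. In SI 69, 9 and 179 were higher (36) and 37, 8 and 108 lower (23), with 21 and 15 at that pseudocount. Selenom was below 2-fold in the 3 planned settings that gave 0.80, 0.79 and 0.66. In the deleted Car1 gate (77 cells) Selenom ranged from 0.13 to 4.18 and Fkbp11 from -0.32 to 0.34. In the Cd79a gate, where control has 54 cells, Def8 ranged from 5.44 to 10.8, Cep85 from 2.07 to 7.38 and Fkbp11 from -1.24 to -0.17. The highest Cep85 value came with thinning, where the control cells held 0 Cep85 UMIs, so its size rests on the pseudocount. The highest Def8 value came from cells of exactly 1 gate.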
